A study of Mus musculus with 10 samples.

Results

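Imprinted genes are expressed from the copy of 1 parent, and each cluster of them is governed by a control region that carries DNA methylation on only 1 parental copy. At most control regions the methylated copy is the maternal one: the mark is set in the oocyte, is kept in body cells and is missing from the male germ line. In many genes that region is not the main promoter. It lies at the start of an antisense or noncoding RNA, at an alternative first exon or in an intron. The 10 imprinted loci described here, Gnas, Grb10, Inpp5f, Kcnq1ot1, Cdkn1c, Peg3, Snrpn, Mest, Impact and Igf2r, were chosen by name because their control regions are of this kind or had no measured CpG at the gene end. Every cytosine inside each gene and within 10 kb of its ends was used, in tiles of 1 kb that held at least 3 distinct CpGs. The members are 10 of 39898 gene loci and 79 of 165974 tiles.

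The methylation levels come from testis DNA of mice labelled as F2, with 5 control libraries and 5 libraries of an arsenic group. The labels name the tissue and the treatment, arsenic or control, and give no strain, age, dose, route or exposed generation. The assay, bisulfite sequencing of a reduced genome, favours CpG-rich DNA beside restriction sites and reads methylated cytosines as unconverted, so much of the genome is not measured. The deposited counts summed to between 69771871 read calls in control library 4 and 100355708 in arsenic library 3, and median coverage per cytosine was 27 to 40 reads. At 3 CpGs upstream of H19, a region methylated in sperm, the level was 95.4% ± 2.40 (SD, n = 10 libraries). The start sites of 7 measured germ cell genes, which are methylated in body cells and free of it in germ cells, had levels of 13.8% to 23.6%. The labels do not say whether libraries of a group came from separate mice, so the spread between them may be technical.

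All 10 loci had covered CpGs and each had at least 1 low tile, defined as a tile whose mean over the 10 libraries was under 25%. The loci held 1031 CpGs, read at 1474 cytosines. Of the 79 tiles 35 were low, 10 were between 25% and 75%, and 34 were above 75%. Low tiles made up 44.3% of the tiles at these loci and 20.4% of the tiles of the whole genome. What was not covered was the start site itself at some of the loci. No covered CpG lay within 500 bp of the listed start of Kcnq1ot1, where the nearest was 930 bp away. The same was true of Peg3 (1333 bp), of Usp29, which starts next to Peg3 on the opposite strand (1169 bp), and of all 3 listed starts of Mest (1788, 2542 and 2545 bp). It was also true of 3 of the 4 listed starts of Snrpn, which lay 15756 to 42012 bp from a covered CpG. No listed start was available for Cdkn1c or Impact, nor for the antisense gene Gnasas1 inside Gnas, and low tiles there were placed from the gene ends.

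The DNA just before 4 of these starts is shown to let the measured and the unmeasured be compared. The letters are RefSeq sequences on GRCm38.p6, the assembly behind mm10, on the strand of the gene, ending at the base before the start site. Capitals mark CCGG, the site of the enzyme commonly used for such libraries. The enzyme is not named in the labels. Snrpn is chr7:60005200-60005449, Grb10 chr11:12037421-12037670, Peg3 chr7:6730420-6730582, cut short where Usp29 starts, and Kcnq1ot1 chr7:143296548-143296797, all on the minus strand.
Snrpn: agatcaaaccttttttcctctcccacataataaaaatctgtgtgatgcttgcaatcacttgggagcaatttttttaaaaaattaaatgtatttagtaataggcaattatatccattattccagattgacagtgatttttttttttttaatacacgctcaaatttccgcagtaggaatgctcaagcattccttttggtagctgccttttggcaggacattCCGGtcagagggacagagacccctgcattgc
Grb10: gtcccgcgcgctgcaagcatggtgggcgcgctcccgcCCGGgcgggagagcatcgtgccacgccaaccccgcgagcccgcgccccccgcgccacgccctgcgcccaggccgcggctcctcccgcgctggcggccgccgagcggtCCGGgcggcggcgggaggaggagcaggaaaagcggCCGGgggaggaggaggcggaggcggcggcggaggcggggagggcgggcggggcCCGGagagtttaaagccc
Peg3: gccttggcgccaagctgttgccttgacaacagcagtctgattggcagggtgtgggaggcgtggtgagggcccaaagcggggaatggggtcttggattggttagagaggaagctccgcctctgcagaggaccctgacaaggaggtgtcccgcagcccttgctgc
Kcnq1ot1: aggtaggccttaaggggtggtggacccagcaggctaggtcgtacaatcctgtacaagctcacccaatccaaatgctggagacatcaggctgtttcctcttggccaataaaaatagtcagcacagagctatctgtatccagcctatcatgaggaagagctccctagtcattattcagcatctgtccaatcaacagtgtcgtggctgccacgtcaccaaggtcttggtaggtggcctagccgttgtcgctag
The Snrpn stretch has 3 CpGs and 1 CCGG, and its 1 measured CpG stood at 13.5%. The Grb10 stretch has 40 CpGs and 4 CCGG, and its 1 measured CpG stood at 9.36%. The Peg3 and the Kcnq1ot1 stretch each have 5 CpGs and no CCGG, and none of their CpGs was measured. Across 32817 RefSeq start windows (250 bases before and 50 after the start), 52.8% held CCGG. A covered CpG lay within 500 bp of 75.9% of the starts with CCGG and of 16.4% of those without it. The start windows of Airn and of Gnas exon 1A, which also hold no CCGG, did have covered CpGs, 279 bp and 250 bp away. Conversely, the windows of Usp29 and of both later Mest starts hold 1 CCGG each and had no covered CpG within 500 bp. The letters TGCCGC or their reverse complement GCGGCA, bound by the imprint-keeping protein ZFP57 when methylated, were found in 11.6% of all start windows. They occurred 1 time in the window of the first Grb10 start, 1 time in that of the measured Snrpn start and 2 times at the later Mest starts, which overlap each other, and not in the windows of Peg3, Kcnq1ot1 or Igf2r. A match of letters shows no binding.

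The low tiles were placed by joining neighbouring low tiles into 19 low regions, a step made after their levels were seen. The 9 regions at or next to known control elements (Gnas antisense and exon 1A, internal Grb10, internal Inpp5f, Kcnq1ot1, Snrpn, Mest, internal Impact and the Airn start in Igf2r) had mean levels of 9.24% to 14.3%. The regions at the last Gnas start, the Inpp5f start and the first Grb10 start were at 1.42% to 4.64%. Both groupings were made with the levels known. Whether the Kcnq1ot1 and Mest tiles belong to a control region was not tested. The other regions ran from 0.900% at the Zim1 start to 18.8% inside Peg3. Among them the Nesp start was at 11.9%, the Igf2r start at 7.44% and the Cdkn1c regions at 7.69% and 6.48%. Gnas is a locus that codes for a G protein subunit and uses several first exons. The region at the first start, that of the Nesp transcript (chr2:174284001-174288000, 108 CpGs), was at 11.9% ± 3.17 (SD, n = 10). The region that begins next to the higher-coordinate end (174295436) of the antisense RNA gene Gnasas1, also called Nespas (chr2:174295001-174301000, 108 CpGs), lay 10681 bp inside the gene and was at 12.7% ± 2.11. The region at exon 1A (chr2:174328001-174329000, 55 CpGs), a germline control region, was at 12.1% ± 2.82. The last start, which serves the G protein transcript itself (chr2:174330001-174331000, 21 CpGs), was at 1.63% ± 1.47. In counts per cytosine from whole-testis DNA, a few percent more methylation in all cells and a larger share of cells that carry the mark cannot be told apart.

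**Figure D1:**
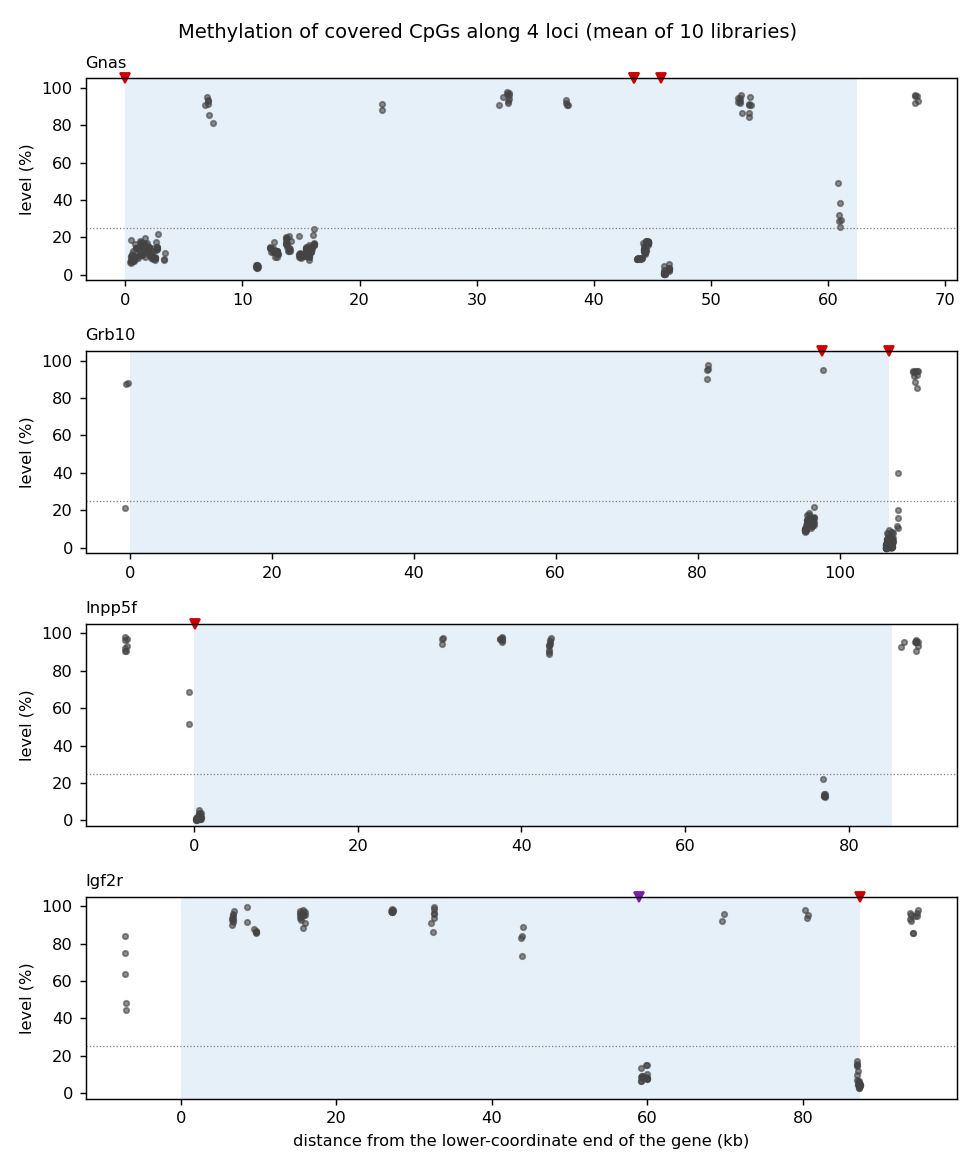
Mean methylation (vertical axis, percent) of every covered CpG over the 10 libraries along Gnas, Grb10, Inpp5f and Igf2r, against distance from the gene's lower-coordinate end in kb; the shading is the gene, red triangles are listed starts of the gene, the purple triangle is the Airn start and the dotted line is 25%. Low groups of CpGs lie well inside each gene as well as at its start, and most of the other measured CpGs are above 75%.

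Exon 1A and the last start lie close together, yet differed in every library. In the 5 control libraries exon 1A stood at 14.97%, 10.6%, 11.2%, 14.01% and 11.6%, and in the 5 arsenic libraries at 11.1%, 13.98%, 14.5%, 5.39% and 13.2%. The last start stood at 4.22%, 1.31%, 0.290%, 1.13% and 0.559% in controls and at 0.180%, 3.76%, 3.005%, 0.952% and 0.880% in arsenic libraries. Exon 1A was the higher in 10 of 10 libraries, by 10.4 ± 2.33 percentage points (SD over the 10 libraries of the difference within each). The Nesp region, at the first start of the gene, had about the level of exon 1A, so the region at the last start was the low one among the regions at Gnas starts. Within 500 bp of the Nesp start itself, 3 CpGs were covered. Their level ran from 0% to 25.7% between libraries, with a median of 4.87%, so the order of the starts themselves is less clear. The values that follow are for the Nesp region. As means over the 10 libraries, the 108 CpGs of the Nesp region ranged from 6.10% to 21.8%. In single libraries its first tile ranged from 0% in control library 2 to 26.4% in arsenic library 3. In the antisense region the 9 CpGs nearest to the Gnasas1 end were lower and uneven, at 4.37% ± 5.33, with 14.02% in control library 4, 13.2% in arsenic library 2 and 0% in control library 5. Between and beyond these regions 6 Gnas tiles were methylated at 89.6% to 95.4%, and 1 tile near the far end of the gene was at 32.0% ± 6.93.

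Grb10, an adaptor protein that restrains insulin and growth signals, also had a pair of low regions at different levels. Its internal low region (chr11:12025001-12027000, 59 CpGs) lay 10428 bp from the gene end and 971 bp beyond the second listed start, whose single covered CpG was at 95.1% ± 3.91. The internal region stood at 12.4%, 10.9%, 15.3%, 11.5% and 7.95% in controls and at 6.24%, 14.2%, 16.4%, 10.9% and 14.1% in arsenic libraries, with a mean of 12.0% ± 3.19. The region at the first start (chr11:12037001-12039000, 85 CpGs) was at 4.64% ± 2.67. Within it the tile of 78 CpGs at the start was at 2.78% ± 3.12 and the next tile, of 7 CpGs, at 16.97% ± 3.15. The internal region was the higher in 10 of 10 libraries, by 7.34 ± 3.62 points.

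Inpp5f, a phosphoinositide phosphatase gene with an imprinted transcript that starts in an intron, had a low tile at its start (chr7:128611001-128612000, 20 CpGs) at 1.42% ± 1.11. A second low tile (chr7:128688001-128689000, 8 CpGs within 171 bp) lay 76820 bp inside the gene and 51429 bp from the nearest listed start of any gene. It stood at 9.72%, 18.9%, 14.7%, 22.0% and 27.5% in controls and at 18.2%, 3.13%, 7.84%, 10.5% and 3.94% in arsenic libraries. Its mean of 13.6% ± 7.99 exceeded that of the start in 10 of 10 libraries, by 12.2 ± 8.05 points, but the difference ranged from 0.525 to 25.4 points. The other 5 Inpp5f tiles were at 93.5% to 96.9%.

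**Figure D2:**
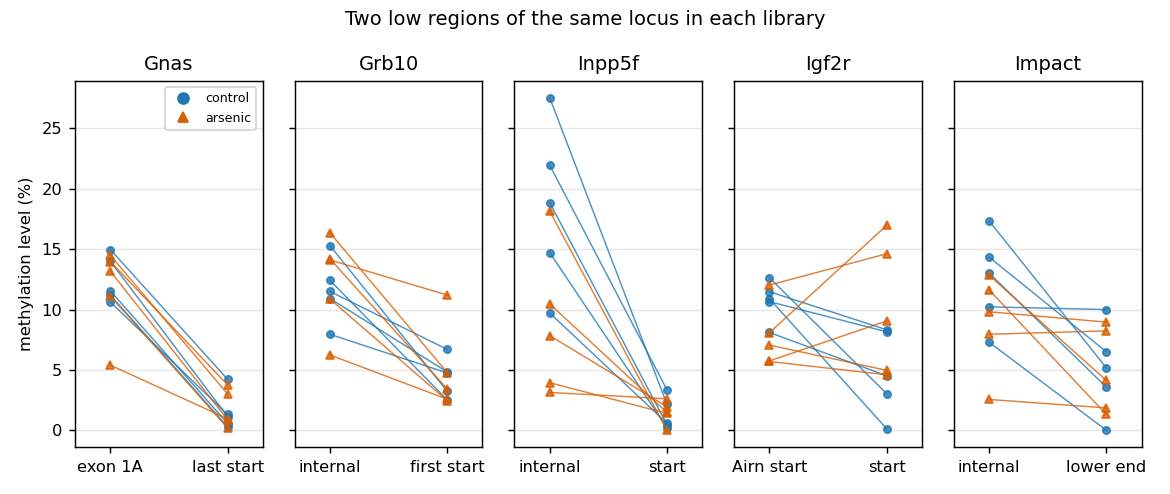
Methylation level (percent) of a pair of low regions of the same locus, joined by 1 line per library; blue circles are the 5 control libraries and orange triangles the 5 arsenic libraries. At Gnas both regions are at listed starts, and exon 1A is the higher in 10 of 10 libraries. The internal region is the higher in 10 of 10 at Grb10 and Inpp5f, in 9 of 10 at Impact and in 7 of 10 at Igf2r.

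Igf2r, the receptor that removes the growth factor IGF2, did not show so clear a split. Its internal control region carries the start of the noncoding RNA Airn, whose expression silences Igf2r. That region (chr17:12741001-12743000, 20 CpGs), 58595 bp from the lower gene end, was at 9.24% ± 2.61. It stood at 12.6%, 8.10%, 10.7%, 10.9% and 11.5% in controls and at 7.05%, 5.74%, 5.70%, 12.0% and 8.07% in arsenic libraries. The start of Igf2r itself (chr17:12769001-12770000, 29 CpGs) was at 7.44% ± 5.18 and varied from 0.128% in control library 4 to 16.97% in arsenic library 5. The internal region was the higher in 7 of 10 libraries and the mean difference of 1.7997 points was within its SD of 5.84. At Impact, a translation regulator gene, the internal region (chr18:12973001-12974000, 22 CpGs, 18311 bp inside the gene) was at 10.7% ± 4.15. The low tile 311 bp inside its lower end (4 CpGs, 67 to 194 read calls per library) was at 4.97% ± 3.41, the lower of the pair in 9 of 10 libraries.

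At the loci with an uncovered start, the low tiles lay some way from it, and whether they belong to the control region was not tested. Kcnq1ot1 is the long noncoding RNA that silences the neighbouring genes of its cluster, Cdkn1c among them, and its promoter is the control region. Its low tile (chr7:143295001-143296000, 11 CpGs) began 547 bp inside the transcript and was at 14.3% ± 6.26. It stood at 18.6%, 17.6%, 17.2%, 6.30% and 22.7% in controls and at 4.38%, 15.5%, 12.5%, 7.97% and 20.4% in arsenic libraries, so control library 4 lay among the lower arsenic libraries. The low tile of Mest, a hydrolase-like gene active in the embryo (chr6:30735001-30736000, 11 CpGs, 1495 bp inside the gene), was at 11.6% ± 6.30. Its controls ranged from 1.54% to 20.7% and its arsenic libraries from 6.69% to 14.8%. Snrpn, which encodes a splicing protein and contains the control element of the Prader-Willi syndrome cluster, was measured at the last of its 4 starts, which it shares with Snurf. That region (chr7:60004001-60006000) was at 12.1% ± 4.15 over 27 CpGs, each between 9.79% and 15.9%. The 10 other Snrpn tiles were at 30.7% to 86.8%.

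Peg3, a zinc finger gene, was the exception. No tile covered the shared promoter of Peg3 and Usp29, and the tiles just beyond it, 418 bp and 1418 bp past the Usp29 start, were methylated at 77.5% ± 5.21 and 69.8% ± 5.90. The low tile inside Peg3 (chr7:6711001-6712000, 6 CpGs) was at 18.8% ± 5.46. The lowest tile of the locus, at 0.900% ± 0.816, belongs to the start of the neighbour Zim1 (chr7:6696001-6697000, 8 CpGs). The level of the Peg3 control region was therefore not measured.

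Cdkn1c, an inhibitor of the cell division kinases, differed from the other loci in that all 6 of its tiles were low. Its own methylation in body cells is set after fertilisation under the control of Kcnq1ot1. The region over the gene (chr7:143458001-143462000, 98 CpGs) was at 7.69% ± 2.25 and the region beyond it (chr7:143464001-143466000, 25 CpGs) at 6.48% ± 3.47. Single CpGs of the first region ranged from 1.02% to 19.04%, a wider spread relative to its level than at Snrpn or exon 1A.

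**Figure D3:**
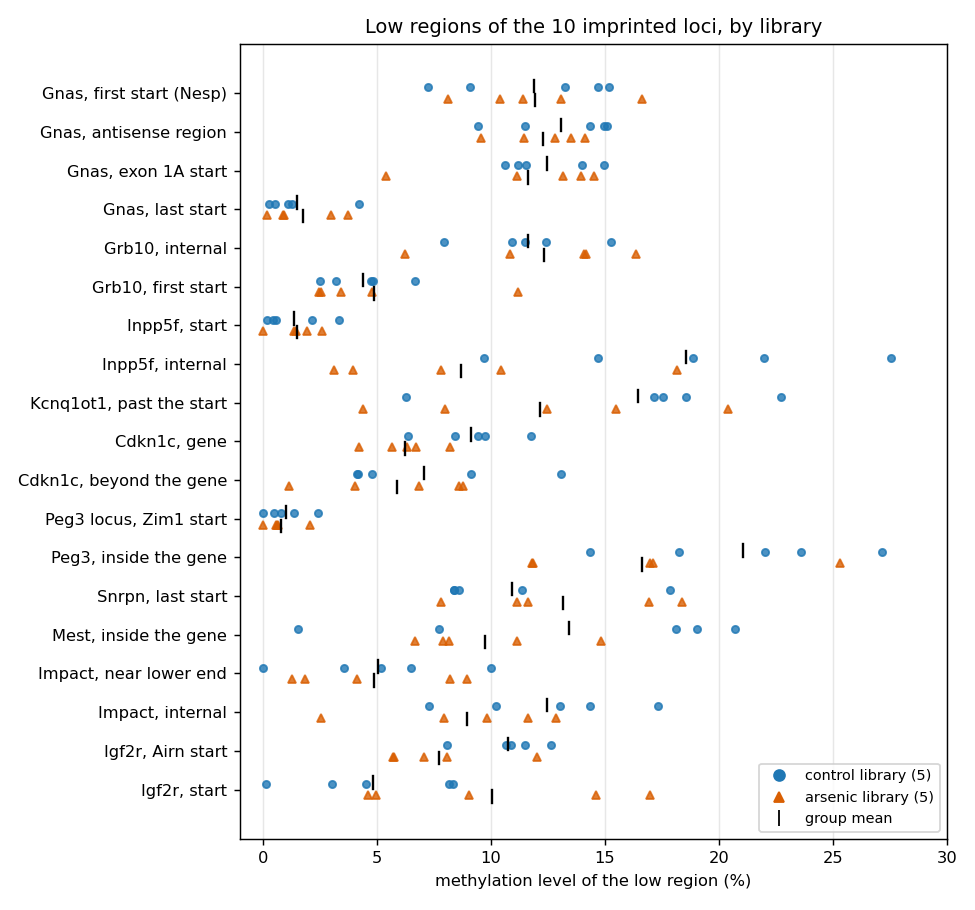
Methylation level (percent, horizontal axis) of each of the 19 low regions, 1 per row, with blue circles for the 5 control libraries, orange triangles for the 5 arsenic libraries and black bars for the group means. The groups overlap in every row. The Gnas last start, the Inpp5f start and the Zim1 start sit near 0, and the 9 regions at or next to control elements have means of 9.24% to 14.3%. The Nesp start, outside those 9, has a mean of 11.9%.

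These levels were high for low tiles and even from CpG to CpG. Of the 35 low tiles 29, or 82.9%, were at 5% or more, against 42.0% of all 33905 low tiles of the genome, 52.3% of those that hold no listed start and 16.2% of those that hold a start. Gnas holds 12 of the 35 and Cdkn1c 6, many of them neighbouring tiles, so these counts are not over 35 separate places. The median was 2.32% over low tiles of the genome with a start and 5.51% over those without. In 22 of the 35 no CpG was under 5% and none at 25% or above, against 12.1% of all low tiles. That share depends on the level. In a class chosen after the levels were seen, low tiles at 8% to 17% with at least 8 CpGs, it was 19 of 19 at these loci and 31.9% of 2612 tiles in the genome. CpGs of a tile share reads, so their evenness counts as a description of the tile. Among 12665 listed starts under 25% with at least 3 CpGs within 500 bp, the median was 2.40% and 14.7% were at 5% or more. Those levels weigh each CpG alike, whereas the member starts, in the same windows, are read-weighted. The starts of Snrpn at 12.1%, exon 1A at 8.59%, Nesp at 7.59% and Igf2r at 7.44% were above 5%. Those of Grb10 at 2.78%, Inpp5f at 1.57% and the last Gnas start at 1.04% were not. The Nesp value rests on 3 CpGs, the nearest 443 bp from the start. Its libraries ran from 0% to 25.7% with a median of 4.87%, under 5%.

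**Figure D4:**
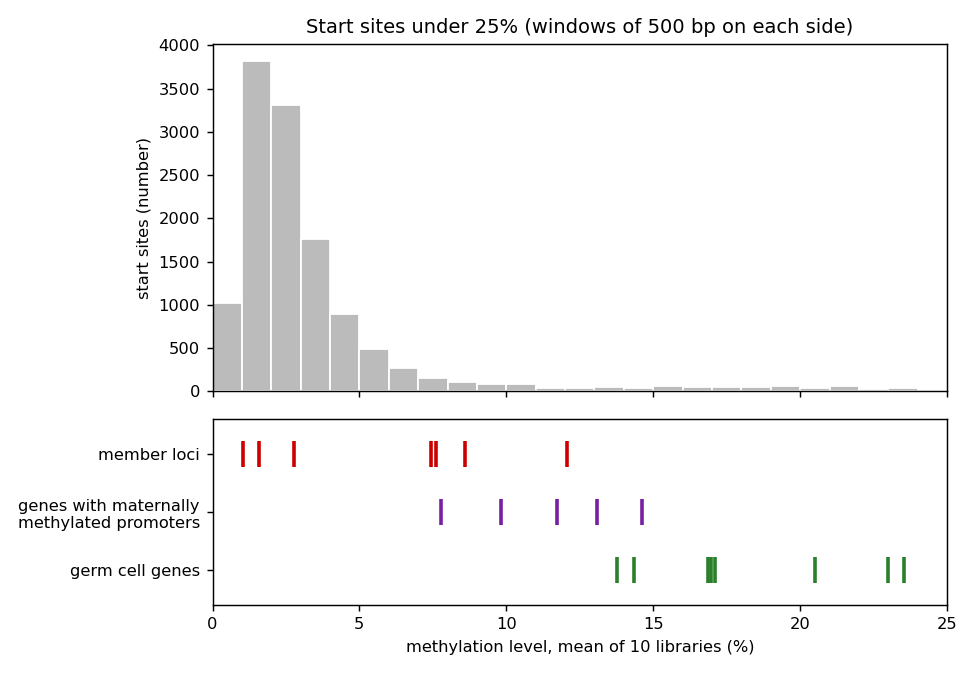
Upper panel: number of listed start sites per 1-point bin of methylation level (mean of the 10 libraries within 500 bp, percent, each CpG weighed alike), for starts under 25%. Lower panel: 1 tick, read-weighted, for each start of the member loci, of genes with maternally methylated promoters and of germ cell genes. Most starts are below 5%, while the ticks of the latter pair of lists lie between 7.77% and 23.6%.

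In the 7 listed genes with maternally methylated promoters, the low tiles, summed per locus, were at 9.82% (Plagl1), 8.497% (Peg10), 10.6% (Nnat), 11.7% (Nap1l5), 13.1% (Mcts2), 12.2% (Peg13) and 9.38% (Zrsr1). Within 500 bp of the listed start, 5 of these genes had levels from 7.77% at Zrsr1 to 14.6% at Nnat. Summed over all low tiles of a locus, the members ran from 6.07% at Inpp5f to 14.3% at Kcnq1ot1. The listed genes nearest in level were Nap1l5, Snurf and Peg13 for Gnas, and Magel2, Mcts2 and Nespas for Kcnq1ot1. Snurf and Nespas share tiles with members, and closeness in level is a description only. In 22 listed genes of the same clusters, 21 with a low tile, the levels ran from 0.880% to 22.8%. Airn, Kcnq1, Slc22a18 and Zim1 among them also share low tiles with members, and Airn has the same low tiles as Igf2r. Of 3 listed genes with a paternally methylated control region, H19 had no low tile, and the low tiles of Rasgrf1 and Meg3 were at 4.37% and 16.3%.

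The libraries did not order the regions alike. Over 171 pairs of the 19 regions, the correlation across the 10 libraries had a median of 0.0458 and ran from -0.678 to 0.790, which is given as a description because regions of a locus share libraries and depth. Control library 1 was the highest library at 5 regions and arsenic library 1 the lowest at 5.

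The comparison of arsenic with control asks whether these regions differ between the groups. No tile, low-tile sum or whole locus among the members passed the threshold, an adjusted p under 0.05 with a difference of at least 10 points. A fall of 10 points cannot occur from a control level under 10%. The low-tile sums of Cdkn1c (8.64%), Inpp5f (7.85%), Grb10 (6.84%) and Igf2r (7.92%) had such control means, so no fall there could be called. No adjusted p among the members was under 0.05 at any size of difference. By the quasi-binomial test with limma's variance moderation, 0 of the 79 tiles were called, and the share over all 165974 tiles was 0%. The lowest adjusted p was 0.770. Without adjustment 8 of the 79 (10.1%) had a p under 0.05, against 5.8% of all tiles, and 6 of these 8 were lower in arsenic, against 3.34% of all tiles lower and 2.46% higher at that p. A limma test on log ratios called 0 member tiles and 1 tile in the whole genome. By that test 7 member tiles were under 0.05 before adjustment, and no share over all tiles is given for it. Of the 35 low tiles 21 (60%) had the lower arsenic level, and so did 60.4% of all low tiles. Among low tiles 7 of 35 had an unadjusted p under 0.05, against 10% of all low tiles. The median difference of arsenic minus control was -1.02 points over the member low tiles and -0.430 over all low tiles.

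Summed over the low tiles of a locus, the arsenic level was the lower at 7 loci and the higher at 3, with 0 of 10 called by the same test, and the background was 0% of 24154 loci. Cdkn1c, at -2.35 points with an adjusted p of 0.629, was the only 1 of the 10 with an unadjusted p under 0.05, a level that 7.32% of the loci reached. The other differences were -5.12 points at Mest, -4.90 at Kcnq1ot1, -3.23 at Peg3, -3.14 at Inpp5f, -3.01 at Impact, -0.539 at Gnas, 0.458 at Grb10, 0.834 at Igf2r and 2.39 at Snrpn. Their adjusted p-values ran from 0.705 to 0.948. A lower arsenic level was found at 64.3% of all loci with a low tile, where the median difference was -0.455 points. Without control libraries 4 and 5, which the labels do not set apart from the other controls, the Inpp5f difference was -1.53 points. Without 1 library at a time, Gnas ran from -1.20 to 0.311 points, Grb10 from -0.582 to 1.20 and Igf2r from -0.433 to 1.72. Arsenic library 4 turned the Gnas and Igf2r values and arsenic library 5 the Grb10 value when left out. The Mest difference ran from -7.37 to -2.83, the smaller without control library 3, and the Impact difference from -4.17 to -1.69, the smaller without arsenic library 1. The Snrpn difference was 4.43 points without control library 2, 1.11 without arsenic library 1, 1.54 without arsenic library 3, and 1.497 and 1.59 without control libraries 1 and 3.

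The germ cell gene starts, markers of how far body cells and germ cells mix, also had the lower mean in the arsenic group. The mean over the 7 genes was 18.5% to 21.8% in the control libraries and 13.3% to 21.2% in the arsenic libraries, 19.9% ± 1.68 against 17.003% ± 3.47 (SD, n = 5 each), and 4 of the 7 genes had the lower arsenic mean. Arsenic libraries 1, 3 and 4 were the low ones. The mean over the 19 regions was also lowest in those 3, at 7.39%, 8.78% and 8.08%, with 8.90% to 10.1% in the other 7. By the median over the 19 regions, arsenic libraries 1, 3 and 5 were the lowest, at 6.24%, 7.95% and 8.21%. Arsenic library 4 stood at 9.56% by the median, so the match of libraries held for the mean only. The part of cell composition in the group differences was not tested.

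The Cdkn1c difference sat inside the gene, toward its lower-coordinate end. No start site was listed, so this says nothing of the gene's start. In the tile at 143458001, with 5 CpGs, the controls were at 18.1%, 13.8%, 21.5%, 19.1% and 20.5% and the arsenic libraries at 10.3%, 10.1%, 13.1%, 8.33% and 7.24%. The groups did not overlap, which held for 1 of the 79 member tiles (1.27%) and for 0.832% of all tiles. The difference was -8.80 points with an adjusted p of 0.770, and between -9.90 and -7.83 when any single library was left out. The next tile, with 68 CpGs, was at 7.84% ± 1.83 in controls and 5.03% ± 1.84 in arsenic libraries, an adjusted p of 0.832. Its libraries overlapped between the groups. Both tiles belong to 1 run of 73 neighbouring low CpGs over 759 bp, read 1937 to 3817 times per library. That run stood at 8.03%, 9.68%, 12.3%, 8.11% and 8.61% in controls and at 5.51%, 6.49%, 3.94%, 6.55% and 6.46% in arsenic libraries. Its groups did not overlap, as in 0.971% of the 22867 low runs of the genome. The run includes the reads of the 5-CpG tile, so it is not a separate observation. Of its 73 CpGs 49 had the lower arsenic mean, and the median difference per CpG was -3.32 points. Neighbouring CpGs share reads, so this count is a description only. The runs at the far end of the gene and beyond it were at 8.51% against 7.77% and at 6.95% against 5.87%, with overlapping libraries.

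**Figure D5:**
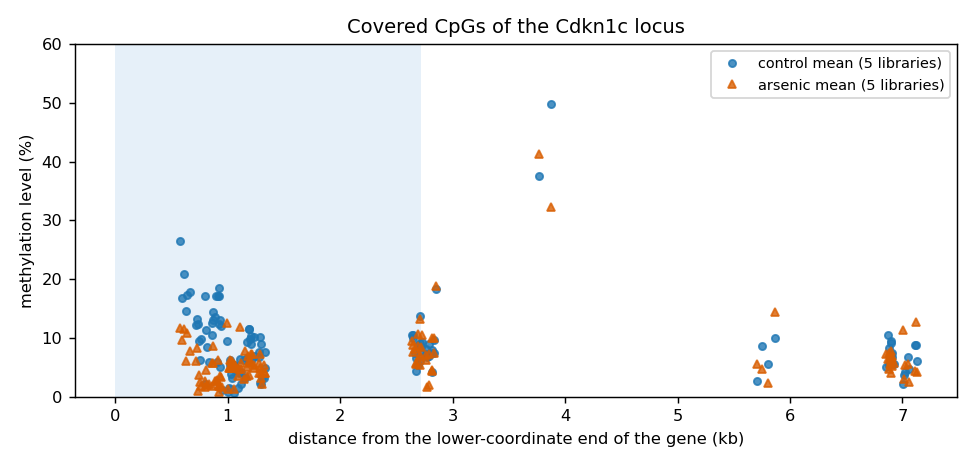
Mean methylation (percent) of each covered CpG of the Cdkn1c locus in the 5 control libraries (blue circles) and the 5 arsenic libraries (orange triangles), against distance from the gene's lower-coordinate end in kb; the shading is the gene. The orange triangles lie below most blue circles in the first group of CpGs, where the group means of the 73-CpG run were 9.35% and 5.79%, and mix with them in the later groups.

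At 3 more loci low tiles reached an unadjusted p under 0.05. In the Gnas antisense region there were 2 such tiles. That at 174296001, with 7 CpGs, was at 18.3% ± 8.33 in controls and 8.87% ± 4.03 in arsenic libraries (-8.21 points, adjusted p = 0.852), with overlapping libraries. That at 174300001, the end of the region, was at 16.3% ± 3.25 in controls and 10.8% ± 2.59 in arsenic libraries (-5.25 points, adjusted p = 0.806). The Igf2r tile at 12742001, past the Airn start, was at 11.6% ± 7.43 and 6.51% ± 3.15 (-6.84 points, adjusted p = 0.832), with control library 2 at 0% and control library 5 at 18.96%. The Snrpn tile at 60004001 was the higher in arsenic, at 7.89% ± 3.29 and 16.96% ± 9.72 (9.72 points, adjusted p = 0.841), and arsenic library 3 alone stood at 33.6%. When 1 library was left out the difference of this Snrpn tile ran from 5.80 points, without arsenic library 3, to 11.6. The tile at the Igf2r start (12769001) was also the higher in arsenic, at 4.83% ± 3.49 and 10.04% ± 5.60 (5.08 points, adjusted p = 0.861). The remaining tile of the 8 was a highly methylated Igf2r tile at 12697001, at 96.3% ± 1.65 and 93.6% ± 1.90 (-2.82 points, adjusted p = 0.857). The 4 Gnas regions each had nearly the same mean in both groups: 11.9% and 11.9% at Nesp, 13.1% and 12.3% at the antisense region, 12.5% and 11.6% at exon 1A, and 1.502% and 1.76% at the last start.

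Summed over all reads of a locus, 9 of the 10 had the lower arsenic level and 0 were called, with a background of 0% of 39898 loci. These directions were not stable. With the mean of CpG levels, which gives each CpG the same weight, 4 of the 9 turned: Gnas (0.0101 points), Grb10 (1.23), Kcnq1ot1 (0.242) and Snrpn (2.45). Leaving out 1 library reversed 15 of 100 whole-locus differences. Inpp5f, at -6.32 points with an adjusted p of 0.840, and Cdkn1c, at -2.38 points with an adjusted p of 0.815, had an unadjusted p under 0.05, which 5.82% of all loci reached, and 58.6% of all loci had the lower arsenic level. These whole-locus values pool low and high tiles, so they also move with how many reads fell on each. In the 7 genes with maternally methylated promoters, 0 low-tile differences were called and 0 had an unadjusted p under 0.05, with 2 higher and 5 lower in arsenic and a median of -1.67 points. In the 21 genes of the same clusters 0 were called and 0 had an unadjusted p under 0.05, with 7 higher and 14 lower and a median of -0.249 points. Some of these genes share low tiles with members, so they are not a separate set. Of Rasgrf1 and Meg3, 0 were called and 0 had an unadjusted p under 0.05.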

How the data were processed

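Reduced representation bisulfite sequencing of testis DNA gave 10 libraries, grouped and numbered by their titles. Per the submitters' processing notes, the tools were Bismark 0.22.3, Trim Galore 0.6.5 and methylKit 1.22.0 on build mm10, with no settings given there. The authors deposited, per the file headers, a read count per cytosine and library: all reads, those read as methylated and those read as unmethylated, not normalised. All 1988759 cytosines had at least 10 reads in every library.

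A level is methylated reads over all reads. Strands of a CpG were pooled by summing. Tiles of 1 kb needed 3 CpGs. Each tile, the summed low tiles of a locus and each whole locus were tested with a logistic model on the summed counts, with quasi-binomial dispersion moderated by limma 3.58.1 (R 4.3.3) and kept at 1 or more, an F test, and Benjamini-Hochberg adjustment over all features of the kind. Calls needed an adjusted p under 0.05 and 10 points. Low runs are 5 or more neighbouring covered CpGs under 25% with gaps of at most 500 bp. The scripts were tested on simulated data. The simulation capped the dispersion below the median of the member low tiles, which was 24.5, against 9.59 over all low tiles. It was thus less noisy than many member tiles. Levels are read-weighted, except that group means average libraries and that levels over all listed starts weigh each CpG alike.

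Genes came from a RefSeq table on GRCm38.p6, and 99.99% of the covered CpGs in its start windows had the letters CG there. The table gives no exons. Tiles in full are, per member, the low tile with most CpGs and that farthest from a gene end, and the tile with the lowest p where under 0.05. The members, lists and rules were chosen with earlier results of these data known. Alternatives tried were the tile size, CpG and coverage minimums, low threshold, flank, a replicate block, limma on log ratios, mean CpG levels, and leaving out libraries.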

Additional observations from a re-analysis of the deposited data

Results flagged for a closer look

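In 2 of 38 groups of 5 libraries, 1 library stood far from the other 4 of its group at a low region. Chance sets apart about 1 in 20 such groups. At the last Gnas start, control library 1 was at 4.22% and the next control at 1.31%. At the first Grb10 start, arsenic library 5 was at 11.2% and the next arsenic library at 4.77%.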

How the results depend on the processing

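Low-tile differences kept their direction in 99 of 100 comparisons with other settings and in 97 of 100 with 1 library left out, and no alternative brought a call: the lowest adjusted p over them was 0.471. With at least 20 reads per cytosine the low-tile Igf2r difference was -2.38 points and its whole-locus difference -0.473. With the mean of CpG levels the whole-locus differences were 0.0101 points at Gnas, 1.23 at Grb10, 0.242 at Kcnq1ot1 and 2.45 at Snrpn. Without control libraries 4 and 5 they were 1.28 at Kcnq1ot1, 1.66 at Snrpn and -0.0111 at Igf2r. The causes were not tested.

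With 1 library left out, the low-tile differences ran from -1.20 to 0.311 points at Gnas, -0.582 to 1.20 at Grb10 and -0.433 to 1.72 at Igf2r. The whole-locus differences ran from -0.681 to 0.763 at Gnas, -2.57 to 0.0890 at Grb10, -1.17 to 1.20 at Igf2r, -3.20 to 0.197 at Impact, -1.62 to 1.11 at Kcnq1ot1 and -1.17 to 0.945 at Snrpn. The count of called member tiles was 0 in each of these settings, and low runs numbered 22, or 23 with 20 reads and 30 under a 15% threshold.

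No clear pairing by replicate number was found. Libraries of the same number had correlations of -0.0126 to 0.0167 in their deviations from the group means. Other pairs had -0.0193 to 0.0168, and 4 of 10 libraries correlated best with their own number. All these correlations are small, so a weak pairing could be missed. With the replicate block 0 member tiles and 0 tiles of the whole genome were called. Of the member tiles 6 had an unadjusted p under 0.05, with no share over all tiles given, and the lowest adjusted p was 0.521.

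The internal Inpp5f tile rests on 8 CpGs, the Peg3 tile on 6 and the Impact tile near its lower end on 4. Whole-testis DNA does not separate cell types.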
